A study of Mus musculus with 4 samples.

Results

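The genes of the mitochondrial respiratory chain were followed in mouse J1 embryonic stem cells on 4 Affymetrix arrays. Members were the genes whose single platform symbol begins with Nduf, Uqcr, Cox4, Cox5, Cox6, Cox7, Cox8 or Atp5, or is Sdha, Sdhb, Sdhc or Sdhd. These were 148 of 28898 probe sets named by 1 gene, and 87 of 17097 genes. Complex I (NADH dehydrogenase) had 42 genes, complex II (succinate dehydrogenase) 4, complex III (the cytochrome bc1 complex) 7, complex IV (cytochrome c oxidase) 17, and complex V (ATP synthase) 17. The Nduf names include 7 assembly factors called Ndufaf, which help to build complex I and are not subunits of it. They also include Ndufs5-ps, which the annotation calls a pseudogene, and whose signal could not be told apart from that of Ndufs5. The platform annotation named 0 probe sets for the subunits that the mitochondrial genome encodes, which were not analysed here.

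The respiratory chain passes electrons from NADH and succinate through complexes I, II, III and IV to oxygen and pumps protons across the inner mitochondrial membrane. ATP synthase uses the returning protons to make ATP. Naive mouse embryonic stem cells respire and also run glycolysis, and the nuclear genes of the chain are known targets of NRF1, of the ETS factor GABP, of YY1 and of estrogen-related receptors such as ESRRB. PRDM14 is a DNA-binding protein found in pluripotent cells and in the germ line, and TET1 and TET2 are dioxygenases that oxidise 5-methylcytosine.

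The conditions were Tet1/Tet2 knockdown with PRDM14, Tet1/Tet2 knockdown without it, scramble control with PRDM14, and scramble control without it, with 1 array each. Per the labels, all RNA came from iP14 cells, a line in which doxycycline induces PRDM14, and the knockdown used short hairpins against Tet1 and Tet2. Cells grew without feeders in serum and LIF. PRDM14 and doxycycline thus cannot be told apart, the labels give no number of clones, and with 1 array each no spread within a condition was measured. The study asked what TET1 and TET2 contribute to gene regulation by PRDM14, and the arrays allow PRDM14 to be compared in both backgrounds and the knockdown in both PRDM14 states.

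A gene was read as a log2 signal from 1 probe set, the one with the highest mean, and entered a comparison when the higher of the 2 arrays reached 5.40, the median of all named probe set values. In all 83 of 87 members and 10519 of 17097 genes reached it. The 4 members below it were Cox4i2, Cox6a2, Cox7b2 and Cox8b. Each is an isoform of complex IV with a known home in other tissues: lung for Cox4i2, muscle for Cox6a2 and Cox8b, and testis for Cox7b2.

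The arrays were first checked against their labels. Tet2 read 7.50 on the knockdown array against 8.46 on the scramble array, and 8.15 against 9.33 with PRDM14, so it was lower in knockdown cells in both states. A second Tet2 probe set differed by −0.56 without PRDM14 and −0.58 with it. Prdm14 lay below 5.40 on all 4 arrays, and its probe set gave no check of the PRDM14 label. Tet1 was not analysed here. The scramble array stood apart in its controls. Its 3 beta-actin control probe sets read 0.25 to 0.33 below the mean of the other 3 arrays, its Gapdh controls 0.16 to 0.23 below, and the controls for 18S ribosomal RNA 0.26 to 0.64 above. The spike-in controls also read above that mean, by 0.24 to 0.29 for BioB, 0.11 to 0.15 for BioC, 0.14 to 0.17 for BioDn and 0.09 to 0.12 for CreX. A further set of spike-in controls, marked r2, read 0.001 to 0.21 above. Of the embryonic stem cell markers 9 of 9 reached the filter, against 1 of 10 fibroblast and feeder markers, 2 of 5 neuroectoderm markers and 2 of 7 mesoderm and endoderm markers. Some of these markers differed by more than any member of the chain. Between knockdown and scramble cells without PRDM14, Tubb3, a neuronal tubulin, differed by 1.06 and Pax6, a neural transcription factor, by −0.89, in opposite directions. Both were 0.87 higher with PRDM14 than without it in scramble cells. The pluripotency factors Klf4 and Nanog differed by −1.21 and −0.64 between knockdown and scramble cells with PRDM14. The part of the controls and of these markers in the results below was not tested.

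Across the 4 arrays, the respiratory chain genes varied about as much as all genes did, and none reached a 2-fold range. The highest and lowest arrays of a member differed by a median of 0.28 on the log2 scale, which is 1.22-fold, against 0.26 over all 10519 genes. The range stayed under 1.3-fold for 61 of 83 members, where the share of all genes was 69.1%, and passed 2-fold for 0 of 83, where it was 3.89%. Cox6a1, the widely expressed subunit 6a of complex IV, had the smallest range of the members. It read 12.24 with PRDM14 and 12.19 without it in knockdown cells, and 12.24 with PRDM14 and 12.20 without it in scramble cells. Its second probe set was less even. There the knockdown difference without PRDM14 was −0.16, against −0.01 on the brighter one. Atp5b, the catalytic beta subunit of ATP synthase, was nearly as even as the brighter Cox6a1 probe set. It read 11.87 with PRDM14 and 11.94 without it in knockdown cells, and 11.91 with and 11.93 without it in scramble cells. Ndufs1, an iron-sulfur subunit at the core of complex I, moved by 0.08 between its extremes. The widest ranges were those of Ndufaf1 at 0.78, Cox7a1 at 0.75, Cox6b2 at 0.68 and Ndufaf4 at 0.67. Of these 4 genes, 2 are assembly factors and 2 are tissue-restricted isoforms. The next were the structural subunits Uqcr11 at 0.66, Atp5mpl at 0.66 and Sdhd at 0.65, whose ranges were nearly the same as that of Ndufaf4.

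**Figure D1:**
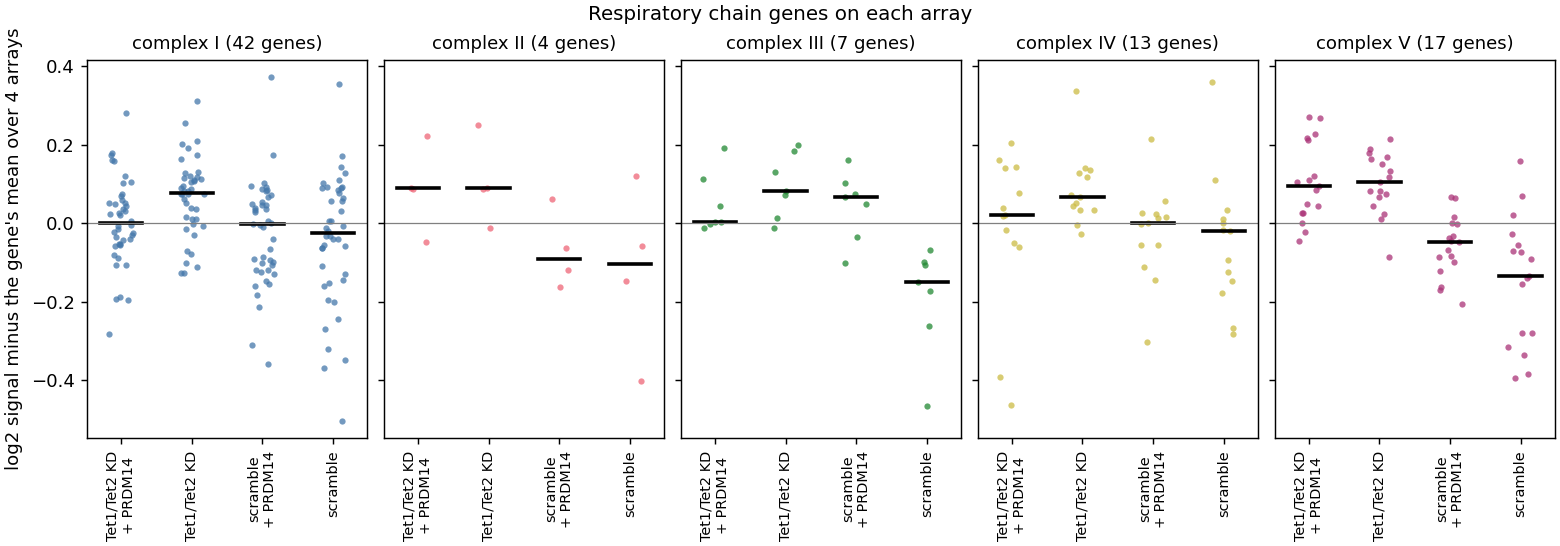
Log2 signal of each member minus its own mean over the 4 arrays, by array and complex, for the 83 members above the filter, with 1 point a gene and a black bar at the median. All 7 genes of complex III lie below 0 on the scramble array, and most of complex V lies above 0 on both knockdown arrays.

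The array on which a member was lowest was not evenly spread. The scramble array was the lowest for 38 of 83 members, against 31.1% of all genes, and the knockdown array without PRDM14 for 6 of 83, against 20.7%. By complex, scramble was lowest for 13 of 42 genes in complex I, 2 of 4 in complex II, 6 of 7 in complex III, 6 of 13 in complex IV and 11 of 17 in complex V. The array of knockdown cells without PRDM14 was the highest for 31 of 83 members, against 22.5% of all genes. Members at least 1.3-fold below all 3 other arrays on the scramble array numbered 7, against 3.27% of all genes: Atp5l, Ndufaf1, Ndufb2, Ndufb3, Ndufs5-ps, Sdhd and Uqcr11. Every comparison with scramble cells without PRDM14 rests on that 1 array, and the part of its shifted controls in these values was not tested.

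The first comparison asked what PRDM14 does without the Tet1/Tet2 knockdown. In scramble cells, PRDM14 left the chain as a whole almost level, with a median difference of 0.04 over 83 members against 0.00 over 10366 genes. Above 0 lay 48 of 83 members, against 50.4% of all genes. None passed 2-fold, against 2.09% of all genes, and 10 passed 1.3-fold, 8 higher and 2 lower, where 17.7% of all genes did so, 9.22% higher and 8.45% lower. The median differences were −0.01 in complex I, 0.01 in complex II, 0.28 in complex III, 0.09 in complex IV and 0.11 in complex V. Complex III had the highest median, with 6 of its 7 genes above 0. Its median was 0.13 with the mean of the probe sets of a gene, against 0.10 in complex IV, and 0.15 without probe sets ending in _s_at or _x_at, against 0.11 in complex V, so its lead depends on the choice of probe set.

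Of the 8 members at least 1.3-fold higher with PRDM14 in scramble cells, 7 are the genes that were low on the scramble array, which the rule that chose them requires. The eighth is Ndufa5. Ndufa5, an accessory subunit in the peripheral arm of complex I, read 8.74 with PRDM14 and 8.10 without it in scramble cells, a difference of 0.64, and 8.40 and 8.25 in knockdown cells. Its second probe set read 8.10 with PRDM14 and 7.37 without it in scramble cells, so both probe sets were highest on the array of scramble cells with PRDM14. Uqcr11, a small subunit of complex III, read 9.65 with PRDM14 and 9.11 without it in scramble cells. In knockdown cells it read 9.77 with PRDM14 and 9.78 without it. Its 3 values other than that of scramble cells without PRDM14 thus lay within 0.13 of one another. Uqcrb, Uqcrq and Uqcrfs1, of which the last is the Rieske iron-sulfur protein, differed by 0.33, 0.31 and 0.28 in scramble cells. Uqcrc1, a core protein of the same complex, differed by −0.03 there. The call for Uqcr10 depends on the probe set, with values of 0.15, −0.03 and −0.44 over its 3 probe sets.

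The lower members in scramble cells were Cox7a1 and Ndufc1. Ndufc1, an accessory subunit in the membrane arm of complex I, read 9.96 with PRDM14 and 10.40 without it in scramble cells, and 10.25 and 10.48 in knockdown cells. The value with PRDM14 was thus the lower one in both backgrounds, by 0.44 and 0.24, and its second probe set gave differences of −0.39 and −0.19. Ndufaf4, an early assembly factor of complex I, differed by −0.30 in scramble cells on its brighter probe set and by −0.98 on the other. The 2 probe sets agree in sign there and not in knockdown cells, where they gave −0.21 and 0.13.

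The same comparison in Tet1/Tet2 knockdown cells does not use the scramble array. There the median over 83 members was −0.03, and 34 of 83 members lay above 0, against 49.5% of all genes. None passed 2-fold, against 0.630% of all genes. Past 1.3-fold were 0 higher and 3 lower, against 7.09% of all genes in either direction, 3.56% higher and 3.53% lower. The lower 3 were Cox7a1, Cox6b2 and Ndufb4. The medians of the complexes were −0.04, −0.07, −0.01, −0.03 and 0.01 for complexes I to V, so complex III, highest in scramble cells, lay near 0. The 4 genes whose difference was furthest above 0 were Sdhc, a membrane anchor of complex II, at 0.24, Atp5e, the epsilon subunit of ATP synthase, at 0.22, Ndufa1 at 0.18 and Ndufaf1 at 0.16.

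Cox7a1 was the 1 member at least 1.3-fold lower with PRDM14 in both backgrounds, against 1.10% of all genes, and 0 members were higher in both, against 1.23%. Cox7a1 is the heart and muscle isoform of subunit 7a of cytochrome c oxidase. Its only probe set read 5.40 with PRDM14 and 6.12 without it in knockdown cells, and 5.48 with PRDM14 and 6.15 without it in scramble cells. The PRDM14 arrays lay 0.73 and 0.66 below their counterparts, while the knockdown arrays lay 0.09 and 0.02 below the scramble arrays. Both values with PRDM14 were below both values without it, and the share of all genes for which that held was not counted. The lower values lay within 0.10 of the filter, so the size of the difference at that signal is uncertain. Cox7a2, the widely expressed counterpart of Cox7a1, did not follow it, with differences of 0.07 in knockdown cells and 0.23 in scramble cells.

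Cox6b2, the testis isoform of subunit 6b, was lower on 1 array alone. Its only probe set read 6.05 with PRDM14 and 6.65 without it in knockdown cells, and 6.73 with and 6.62 without it in scramble cells. It lay at least 1.3-fold below the other 3 arrays on the array of knockdown cells with PRDM14, which held for 0.580% of all genes. Its widely expressed counterpart Cox6b1 read 11.21 with PRDM14 and 11.20 without it in knockdown cells, and 11.07 with and 10.81 without it in scramble cells. Cox8c, the testis isoform of subunit 8, ranged over 0.11 on the 4 arrays. Ndufa4l2, a gene known to be induced by hypoxia, ranged over 0.13. The tissue-restricted isoforms above the filter thus did not share a pattern over the arrays.

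**Figure D2:**
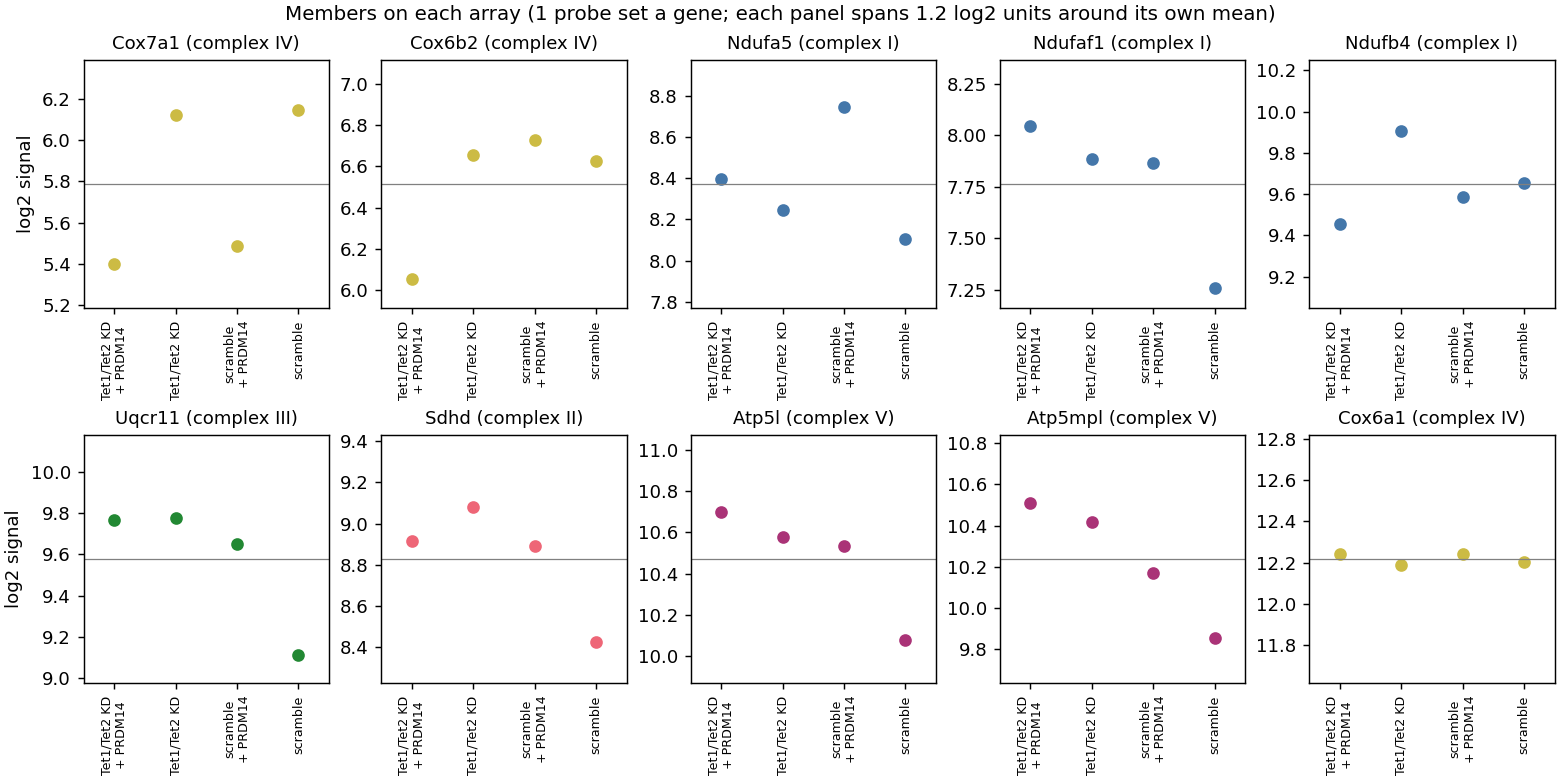
Log2 signal on each array of 10 members, 1 probe set a gene, where each panel spans the same 1.2 log2 units around the gene's own mean (grey line). Cox7a1 is low on the 2 arrays with PRDM14, Cox6b2 on 1 of them, Uqcr11, Sdhd, Atp5l and Ndufaf1 on the scramble array, and Cox6a1 is level on the probe set shown.

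Because TET proteins act on cytosines before guanines, the promoter windows of these 2 isoforms are given with each CG pair in capitals. They run from 250 bases before to 50 bases after the start of the gene, on the strand of the gene, in RefSeq's table for GRCm38.p6. That of Cox7a1 lies at chr7:30183921-30184220 on the plus strand and that of Cox6b2 at chr7:4753045-4753344 on the minus strand.
Cox7a1: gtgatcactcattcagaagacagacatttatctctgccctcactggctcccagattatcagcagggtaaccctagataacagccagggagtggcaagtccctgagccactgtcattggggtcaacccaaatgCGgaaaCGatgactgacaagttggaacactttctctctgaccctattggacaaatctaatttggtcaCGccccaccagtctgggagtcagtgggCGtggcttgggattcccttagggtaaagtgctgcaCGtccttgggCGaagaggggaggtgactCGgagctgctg
Cox6b2: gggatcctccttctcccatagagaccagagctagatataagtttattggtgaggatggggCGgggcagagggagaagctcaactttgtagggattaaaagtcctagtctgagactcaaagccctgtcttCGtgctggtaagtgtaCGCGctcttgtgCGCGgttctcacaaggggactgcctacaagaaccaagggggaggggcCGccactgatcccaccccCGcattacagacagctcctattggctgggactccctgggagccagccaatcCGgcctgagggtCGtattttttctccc
Cox7a1 has 7 CG pairs in its window and Cox6b2 has 10. The median over the 70 members with a window was 20, the same as over the windows of 8499 genes above the filter, and the median over all 27025 windows was 7. The arrays measured no methylation, and none of these counts bears on whether a site was methylated.

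Ndufb4, an accessory subunit in the membrane arm of complex I, read 9.46 with PRDM14 and 9.90 without it in knockdown cells, and 9.59 with and 9.65 without it in scramble cells. A second probe set of the gene gave −0.42 and −0.17, and a further one below the filter gave 0.06 and 0.12. The gene was highest on the array of knockdown cells without PRDM14 by its brightest 2 probe sets.

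The PRDM14 differences of 28 of 83 members did not keep 1 sign in both backgrounds, as for 4543 of 10158 genes. The members that kept their sign had no single direction. Above 0 in both were 27 of 83 members, against 27.8% of all genes, and below 0 in both were 28, against 27.5%. In complex I the counts were 9 and 18 of 42, in complex III 3 and 1 of 7, in complex IV 6 and 3 of 13, and in complex V 8 and 5 of 17. The 6 measured genes of the catalytic core of complex I had medians of −0.10 in knockdown cells and 0.03 in scramble cells. Of these, Ndufv2 differed by −0.03 in knockdown cells and by −0.28 in scramble cells, and Ndufs7 by −0.25 and −0.08.

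The knockdown comparison asked what the knockdown of Tet1 and Tet2 does by itself. Without PRDM14, the chain read higher in knockdown than in scramble cells, with a median of 0.17 over 83 members against 0.01 over 10351 genes. Above 0 were 62 of 83 members, against 51.6% of all genes. The 1197 genes at least as bright as the first quartile of the members had a median of 0.05. None passed 2-fold, against 1.06% of all genes. Past 1.3-fold were 13 higher and 1 lower, against 13.4% of all genes in either direction, 7.85% higher and 5.54% lower. The medians of complexes I to V were 0.11, 0.14, 0.24, 0.11 and 0.23, and all 7 genes of complex III and 15 of 17 of complex V lay above 0. A dimmer probe set above the filter gave −0.16 for Uqcrq and −0.03 for Uqcr10, so the sign of these genes depends on the probe set. This comparison uses the scramble array, which stood apart in its controls.

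With PRDM14 in both groups, where the scramble array without PRDM14 plays no part, the median over 83 members was 0.08 against 0.00 over 10322 genes. Above 0 were 54 of 83, against 50.8% of all genes. None passed 2-fold, against 1.10%, and 1 member was at least 1.3-fold higher and 1 lower, against 10.5% of all genes in either direction, 5.81% higher and 4.67% lower. The medians of complexes I to V were 0.06, 0.16, 0.04, 0.06 and 0.16. The median of 0.16 in complex II, over 4 genes, was 0.080 with the mean of the probe sets of a gene. Complex V lay at 0.16 against 0.23 without it, and complex III near 0 with 4 of its 7 genes above it. The higher member was Ndufaf4 and the lower one Cox6b2.

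**Figure D3:**
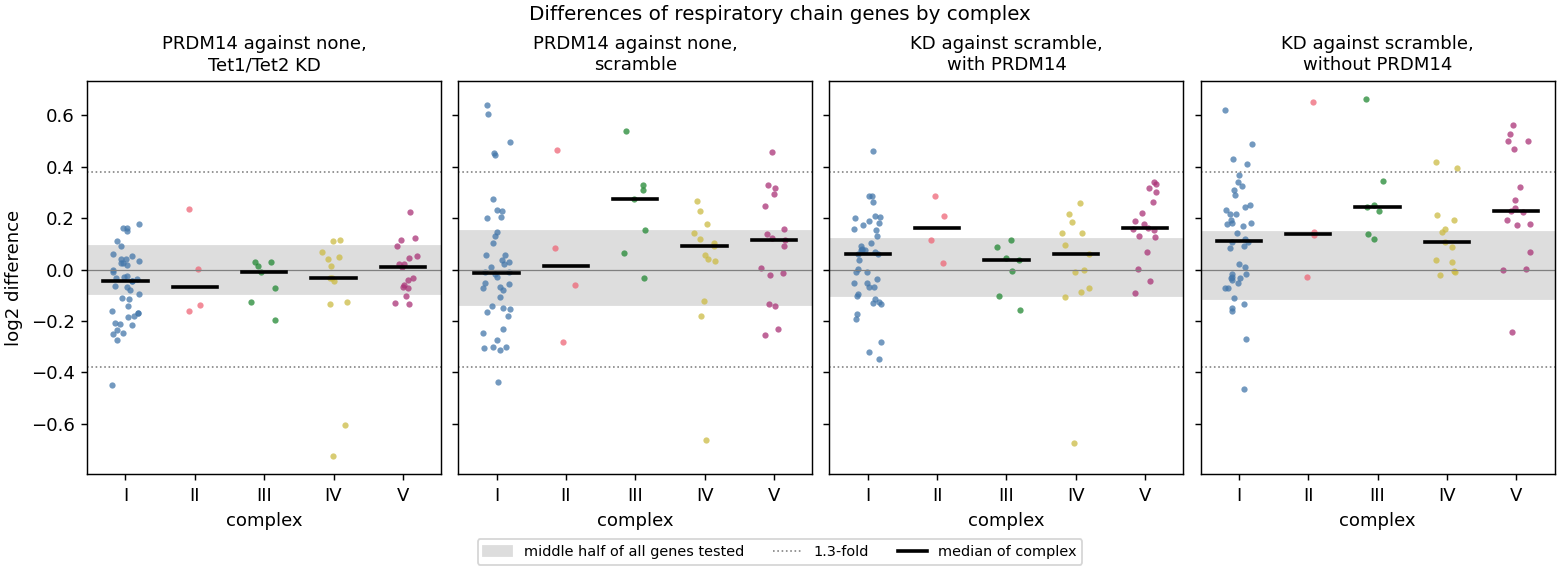
Log2 differences of the 83 members in each comparison by complex, with 1 point a gene, black bars at the medians, grey bands over the interquartile range of all genes tested and dotted lines at 1.3-fold. Complex V has a median of 0.16 with PRDM14 and 0.23 without it in the knockdown comparisons, and complex III one of 0.28 for PRDM14 in scramble cells and −0.01 in knockdown cells.

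Of the 5 complexes, ATP synthase had the largest share of genes above 0 under the knockdown in both PRDM14 states, 13 of 17, followed by complex II with 3 of 4. In complex V 0 genes lay below 0 in both, which also held for complexes II and III. Over all members 45 of 83 were above 0 in both, against 28.1% of all genes, and 12 below in both, against 25.1%. Those 2 comparisons share no array. At least 1.3-fold higher in both were 0 members, against 1.29% of all genes, and at least 1.3-fold lower in both were 0, against 0.739%. The differences are thus common in sign and small in size.

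Among the small subunits of the membrane sector of ATP synthase, Atp5mpl read 10.51 in knockdown and 10.17 in scramble cells with PRDM14, and 10.42 in knockdown and 9.85 in scramble cells without it. Atp5md read 9.44 in knockdown and 9.11 in scramble cells with PRDM14, and 9.42 and 8.95 without it. The differences were 0.34 with PRDM14 and 0.56 without it for Atp5mpl, and 0.33 and 0.47 for Atp5md. Atp5k, subunit e, read 10.95 in knockdown and 10.69 in scramble cells with PRDM14, and 10.90 and 10.40 without it, and its second probe set gave differences of 0.31 and 0.58. Atp5l, subunit g, read 10.70 in knockdown and 10.53 in scramble cells with PRDM14, and 10.58 and 10.08 without it. For Atp5l the scramble value without PRDM14 stood apart from the other 3.

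In the F1 head, which makes ATP, the 5 genes had a median of 0.13 with PRDM14 and 0.24 without it. Atp5c1, the gamma subunit at its axis, read 11.44 in knockdown and 11.12 in scramble cells with PRDM14, and 11.49 and 11.26 without it. Atp5e read 9.73 in knockdown and 9.43 in scramble cells with PRDM14, and 9.51 and 9.18 without it. Atp5a1, the alpha subunit, differed by 0.07 with PRDM14 and 0.53 without it, and Atp5d, the delta subunit, by 0.13 and 0.19. Atp5b differed by −0.04 and 0.00, so the alpha and beta subunits, which alternate in the head, did not move alike between the conditions. The 3 genes of the c ring, which encode the same mature protein, differed in pattern: Atp5g3 by 0.18 with PRDM14 and 0.17 without it, Atp5g1 by 0.00 and 0.27, and Atp5g2 by 0.13 and −0.24. Atp5g2 was thus of opposite sign in the 2 PRDM14 states.

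**Figure D4:**
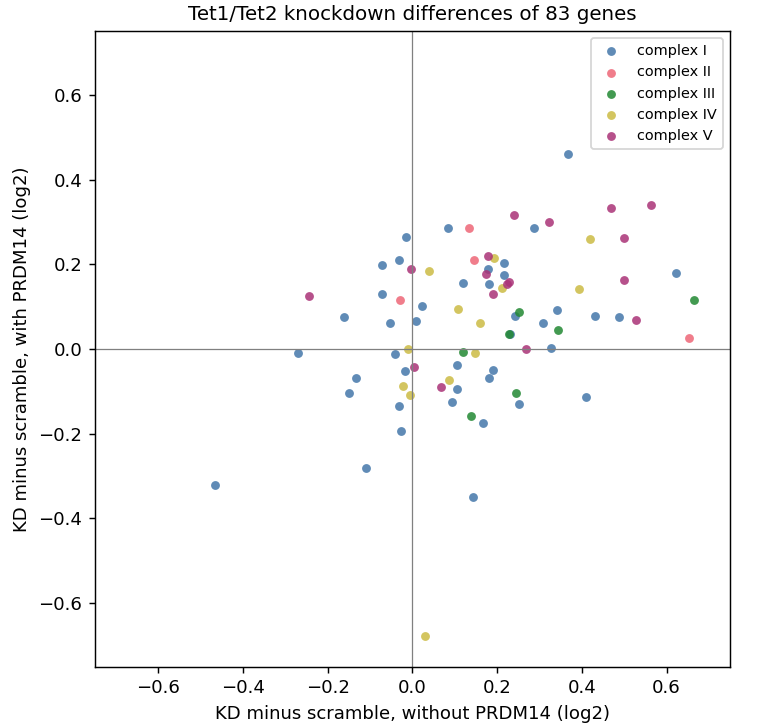
Log2 difference of knockdown against scramble cells with PRDM14 (vertical axis) and without it (horizontal axis) for 83 members, coloured by complex, from comparisons that share no array. The area above 0 on both axes holds 45 members, 13 of the 17 of complex V among them.

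In complex II, Sdhd, a membrane anchor, read 8.92 in knockdown and 8.89 in scramble cells with PRDM14, and 9.08 and 8.43 without it. Its difference was 0.03 with PRDM14 and 0.65 without it, so it rests on the scramble array. Sdhc, the other anchor, differed by 0.29 and 0.13, Sdha, the flavoprotein, by 0.21 and 0.15, and Sdhb, the iron-sulfur protein, by 0.11 and −0.03. A second Sdha probe set above the filter gave 0.03 with PRDM14 and −0.13 without it, so the sign of Sdha without PRDM14 depends on the probe set.

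In complex III the knockdown differences on the brightest probe set of each gene lay between −0.16 and 0.12 with PRDM14 and between 0.12 and 0.66 without it. Uqcr11 differed by 0.12 with PRDM14 and 0.66 without it. Uqcrb differed by 0.04 and 0.34 and Uqcrfs1 by −0.10 and 0.24. In complex IV the largest differences above 0 without PRDM14 were those of Cox7a2 and Cox6b1. Cox7a2 read 11.67 in knockdown and 11.41 in scramble cells with PRDM14, and 11.60 and 11.19 without it. Cox6b1 read 11.21 in knockdown and 11.07 in scramble cells with PRDM14, and 11.20 and 10.81 without it. Both genes were lowest on the scramble array, and their second probe sets gave like differences of 0.24 and 0.17 with PRDM14 and 0.45 and 0.42 without it. Cox6c differed by 0.22 and 0.19.

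In complex I, 18 of 42 genes lay above 0 in both PRDM14 states and 9 below 0 in both, a smaller excess than in complex V, and that difference between the complexes was not tested. Without PRDM14 the assembly factors Ndufaf1 and Ndufaf3 were the highest and the lowest of the complex, and with PRDM14 Ndufaf4 was the highest and Ndufa5, an accessory subunit, the lowest. Ndufaf4 read 7.95 in knockdown and 7.49 in scramble cells with PRDM14, and 8.16 and 7.79 without it. Its second probe set gave 0.66 with PRDM14 and −0.45 without it, so the sign without PRDM14 depends on the probe set. Ndufaf3, with which the Ndufaf4 protein is known to work in assembly, read 6.86 in knockdown and 7.18 in scramble cells with PRDM14, and 7.03 and 7.50 without it. It was the 1 member at least 1.3-fold lower in knockdown cells without PRDM14, at −0.47. Ndufaf1, another assembly factor, read 8.05 in knockdown and 7.87 in scramble cells with PRDM14, and 7.88 and 7.26 without it.

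Among the accessory subunits of complex I, Ndufb2 and Ndufb3, of the membrane arm, differed by 0.07 and −0.11 with PRDM14 and by 0.49 and 0.41 without it. Ndufb7 was steadier at 0.28 and 0.29. Ndufa4, which is named for complex I but is now placed in complex IV, differed by 0.17 and 0.22. Ndufa5 differed by −0.35 with PRDM14 and 0.14 without it. Without the 7 assembly factors and Ndufs5-ps, the median of complex I was 0.06 with PRDM14 and 0.11 without it, the same as with them.

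The dependence of the PRDM14 difference on the knockdown was taken as the PRDM14 difference in knockdown cells minus that in scramble cells. Its median was −0.10 over 83 members, against −0.00 over 10519 genes, and 28 of 83 members lay above 0, against 49.1% of all genes. None passed 2-fold, against 2.27%. Past 1.3-fold were 0 above and 9 below, against 20.1% of all genes in either direction, 9.76% above and 10.3% below. The 9 were Cox6b2 at −0.71, Sdhd at −0.63, Uqcr11 at −0.55, Ndufb3 at −0.52, Ndufa5 at −0.49, Atp5a1 at −0.46, Ndufaf1 at −0.44, Ndufb2 at −0.41 and Ndufb4 at −0.38. Of these, Cox6b2 and Ndufb4 had their lowest value with PRDM14 in knockdown cells. The other 7 had their lowest value on the array of scramble cells without PRDM14. The medians of complexes I to V were −0.04, 0.10, −0.30, −0.10 and −0.07, and 0 of 7 genes of complex III lay above 0. The highest value was 0.37 for Atp5g2.

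The additive fit in limma, over all 4 arrays with 1 residual degree of freedom a gene, called 0 of 10519 genes at 5% after Benjamini-Hochberg adjustment for either average effect. At an unadjusted p under 0.05 it had 638 genes for PRDM14, 2 of them members, and 604 for the knockdown, 9 of them members. Cox7a1 had the lowest unadjusted p of the members for PRDM14, with an average log2 difference of −0.69 ± 0.07 (SE) and an adjusted p of 0.782 in limma, and was lower in 2 of 2 backgrounds. The other member was Ndufc1 at −0.34 ± 0.11 (SE). For the knockdown the lowest unadjusted p was that of Cox7a2, at 0.34 ± 0.08 (SE), with an adjusted p of 0.802 in limma. The 9 members for the knockdown were Cox7a2, Cox6c, Ndufaf3, Ndufaf4, Atp5mpl, Atp5c1, Atp5k, Atp5md and Atp5g3, of which Ndufaf3 alone was lower. None of these passed the adjusted threshold. The 1 residual degree of freedom is the dependence described above. Each SE and p thus reflects how alike a gene's difference was in the 2 backgrounds, moderated over all genes. Neither measures spread between replicates, of which there were none.

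As a technical measure of spread, the probe sets of 1 gene can be set against each other, which covers neither cultures nor arrays. Over 37 member genes that had more than 1 probe set above the filter, the pooled SD of a difference within a gene was 0.06 and 0.11 for PRDM14 in knockdown and scramble cells, and 0.07 and 0.11 for the knockdown with and without PRDM14. The signs of all probe sets agreed for 28 and 31 of the 37 genes in the PRDM14 comparisons and for 34 and 29 in the knockdown comparisons. Differences of single members under about 0.1 are therefore not distinguished from the disagreement between probe sets.

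Genes that serve the chain but carry other names were read from lists chosen by function. The soluble carrier between complexes III and IV, cytochrome c, is encoded by Cycs, which read 10.72 in knockdown and 10.34 in scramble cells with PRDM14, and 10.76 and 10.23 without it. Both differences, 0.38 and 0.52, passed 1.3-fold. Cyc1, the cytochrome c1 of complex III, differed by 0.03 and 0.33, much like the other genes of its complex. Of 28 measured assembly factors that are not called Ndufaf, 3 passed 1.3-fold for the knockdown with PRDM14, 2 of them higher, where 10.5% of all genes did so, and 6 without it, 4 of them higher, where 13.4% did. With PRDM14 against none, 1 passed it in knockdown cells, against 7.09% of all genes, and 10 in scramble cells, against 17.7%, of which 4 were higher and 6 lower. Tmem70, which helps to assemble ATP synthase, was the one to pass 2-fold. It read 6.23 with PRDM14 and 6.48 without it in knockdown cells, and 5.56 with and 6.96 without it in scramble cells, where the difference was −1.40.

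Coenzyme Q carries electrons from complexes I and II to complex III, and 3 of 9 measured genes of its synthesis were at least 1.3-fold lower with PRDM14 in scramble cells, against 8.45% of all genes, and 0 higher, against 9.22%. In knockdown cells 2 of 9 were lower, against 3.53%, and 0 higher, against 3.56%. Coq2, which joins the ring to its tail, read 6.40 with PRDM14 and 7.16 without it in knockdown cells, and 5.72 with and 7.76 without it in scramble cells. The difference of −2.05 in scramble cells was larger than that of any respiratory chain gene, and that in knockdown cells was −0.76. Coq7, a hydroxylase of the pathway, read 8.17 with PRDM14 and 8.13 without it in knockdown cells, and 7.27 with and 8.06 without it in scramble cells. Coq7 was thus low only on the array of scramble cells with PRDM14. Coq9, a lipid-binding partner of the COQ7 protein, read 6.78 with PRDM14 and 7.27 without it in knockdown cells, and 6.12 with and 7.24 without it in scramble cells. Coq9, like Coq2 and unlike Coq7, was lower with PRDM14 in both backgrounds, by 0.49 and 1.12.

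Of 15 genes of the tricarboxylic acid cycle and pyruvate dehydrogenase, 11 lay above 0 for the knockdown without PRDM14, against 51.6% of all genes. With PRDM14 6 did, against 50.8%, and the medians were 0.14 without it and −0.04 with it. The 72 measured mitochondrial ribosomal proteins had medians of 0.03 with PRDM14 and 0.14 without it. Above 0 in both were 31, against 28.1% of all genes, and below 0 in both 7, against 25.1%. The 69 cytosolic ribosomal proteins had medians of 0.01 and −0.06, with 10 above 0 in both and 26 below in both. Without PRDM14, 53 of the 72 mitochondrial and 11 of the 69 cytosolic ribosomal proteins lay above 0, against 51.6% of all genes. The signs in the mitochondrial lists without PRDM14 were thus like those of the chain and not like those of the cytosolic ribosome, in a comparison that uses the scramble array.

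Among 18 regulators of mitochondrial biogenesis and of the mitochondrial genome, Ppargc1b, a coactivator of nuclear respiratory genes, was the one past 2-fold. It read 7.42 in knockdown and 6.32 in scramble cells with PRDM14, and 7.24 and 6.56 without it. Its differences were 1.10 with PRDM14 and 0.68 without it. Nrf1 differed by −0.02 and 0.15, Gabpa by −0.07 and −0.01, Yy1 by −0.27 and −0.04, Esrra by 0.18 and 0.09, and Tfam, which packages mitochondrial DNA, by 0.15 and 0.29. Esrrb, a receptor of the estrogen-related family in embryonic stem cells, read 7.82 in knockdown and 8.34 in scramble cells with PRDM14, and 8.31 and 8.85 without it. Esrrb was also lower with PRDM14 than without it in both backgrounds, by 0.49 and 0.51.

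The promoters of the members were searched for motifs of these factors in windows of 300 bases. Of 87 members 70 had a window in RefSeq's table. The motifs were GCGCANGCG for NRF1, CCGGAAG for ETS factors, AAGATGGCG for YY1, TCAAGGTCA for estrogen-related receptors and GGTCTCTAA for PRDM14, on both strands, and no match overlapped another motif's match in a member. NRF1's motif lay in 20 of 70 windows, or 28.6%, against 6.47% of all 27025 windows and 13.6% of the 8499 windows of genes above the filter. The ETS motif lay in 16, or 22.9%, against 9.12% and 18.1%. That of YY1 lay in 7, or 10%, against 1.49% and 3.39%, and 6 of the 7 were of complex I. The receptor motif lay in 2, those of Sdhd and Atp5g3, or 2.86%, against 0.407% and 0.282%, and that of PRDM14 in 0, against 0.259% of all windows. A match is a description of the letters and says nothing of binding.

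**Figure D5:**
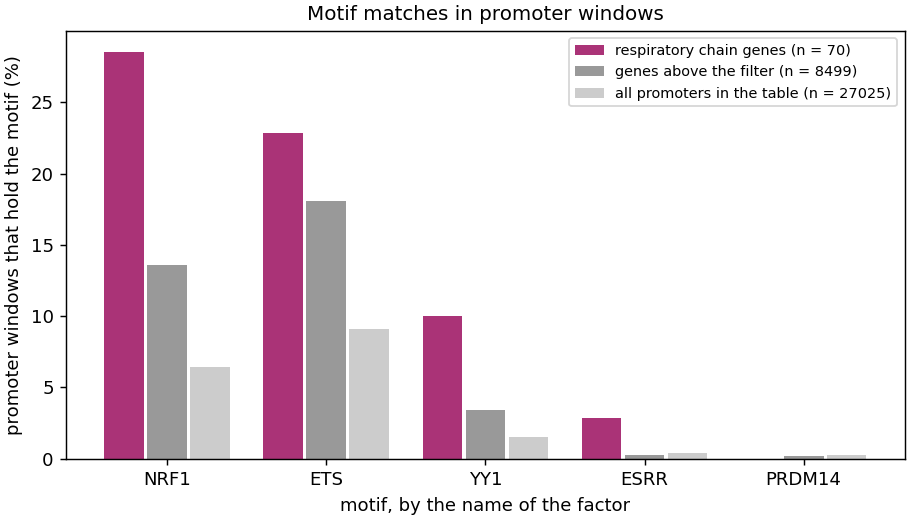
Share of promoter windows of 300 bases that hold each motif on either strand, in percent, for 70 respiratory chain genes, 8499 genes above the filter and all 27025 windows. The NRF1 motif lies in 28.6% of the windows of the chain, against 13.6% of genes above the filter.

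Of the 7 members that were low on the scramble array 6 had a window. The ETS motif lay in 4 of the 6, against 22.9% of all member windows and 18.1% of windows of genes above the filter. The NRF1 motif lay in 3 of the 6, against 28.6% and 13.6%. These 6 were picked by their signal, and a link between motif and signal was not tested. Only the 4 windows with the ETS motif are shown, with matches in capitals. Beside them is the window of Cox6a1, the member with the smallest range on its brightest probe set. The windows lie at chr10:80406772-80407071 for Uqcr11, chr9:50603800-50604099 for Sdhd, chr9:44920693-44920992 for Atp5l, chr2:119662785-119663084 for Ndufaf1 and chr5:115348909-115349208 for Cox6a1, all on the minus strand of GRCm38.p6 and printed in the direction of the gene.
Uqcr11: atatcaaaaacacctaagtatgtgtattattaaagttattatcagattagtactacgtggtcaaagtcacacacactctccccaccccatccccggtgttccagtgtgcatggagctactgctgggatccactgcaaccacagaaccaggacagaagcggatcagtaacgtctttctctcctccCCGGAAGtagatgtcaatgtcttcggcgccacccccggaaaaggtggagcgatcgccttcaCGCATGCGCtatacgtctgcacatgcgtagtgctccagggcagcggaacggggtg
Sdhd: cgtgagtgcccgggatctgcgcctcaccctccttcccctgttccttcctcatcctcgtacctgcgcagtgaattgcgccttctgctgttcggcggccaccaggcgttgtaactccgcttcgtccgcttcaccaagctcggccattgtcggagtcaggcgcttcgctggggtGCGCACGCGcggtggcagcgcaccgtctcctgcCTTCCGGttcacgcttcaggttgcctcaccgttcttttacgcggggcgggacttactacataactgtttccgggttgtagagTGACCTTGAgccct
Atp5l: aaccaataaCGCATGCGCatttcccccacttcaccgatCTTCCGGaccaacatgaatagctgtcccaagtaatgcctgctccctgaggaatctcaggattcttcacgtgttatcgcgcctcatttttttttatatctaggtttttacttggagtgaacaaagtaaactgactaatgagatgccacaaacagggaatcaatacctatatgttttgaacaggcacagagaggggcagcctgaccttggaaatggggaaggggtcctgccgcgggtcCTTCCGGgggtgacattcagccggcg
Ndufaf1: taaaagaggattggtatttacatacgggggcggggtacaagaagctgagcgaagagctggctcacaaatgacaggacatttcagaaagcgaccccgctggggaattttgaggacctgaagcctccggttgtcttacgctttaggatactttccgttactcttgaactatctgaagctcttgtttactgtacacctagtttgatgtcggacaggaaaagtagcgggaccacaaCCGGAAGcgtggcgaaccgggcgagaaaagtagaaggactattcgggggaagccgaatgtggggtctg
Cox6a1: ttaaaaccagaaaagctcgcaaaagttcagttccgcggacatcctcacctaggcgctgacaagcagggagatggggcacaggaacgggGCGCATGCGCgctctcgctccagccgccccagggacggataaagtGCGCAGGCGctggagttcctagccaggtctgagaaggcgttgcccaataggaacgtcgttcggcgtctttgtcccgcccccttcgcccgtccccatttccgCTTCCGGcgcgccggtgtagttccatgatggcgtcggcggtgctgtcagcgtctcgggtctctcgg
The windows of Uqcr11, Sdhd and Atp5l hold the motifs of NRF1 and of ETS factors, that of Sdhd holds the receptor motif as well, and that of Ndufaf1 holds the ETS motif alone. Cox6a1, which was level on the 4 arrays on its brighter probe set, holds the motifs of NRF1 and of ETS factors too. Whether these motifs go with the range over the arrays was not tested.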

How the data were processed

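Total RNA from 4 cultures, 1 per condition, was measured on Affymetrix arrays after labelling with a 3′ IVT kit, per the labels' protocols. The authors deposited 1 log2 signal per probe set and array. Per the submitters' processing notes, Affymetrix Expression Console was used. Its version, the summary method and a genome build were not given in the sources used here. The log base was taken from the range of 2.78 to 13.2. Quartiles agreed within 0.02 between arrays, so the values had already been normalized. Of 45141 probe sets, 28898 carried 1 gene symbol, 551 several and 15588 none, and 104 were controls. All 87 members matched RefSeq by Entrez identifier, with 0 symbols changed.

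A gene was read from its probe set with the highest mean, and the filter was the median of named values, 5.40. With 1 array per condition the 2-fold and 1.3-fold limits are rules of size and not tests. An additive model was fitted with limma 3.58.1 in R 4.3.3 (lmFit and eBayes with an intensity trend), adjusted by Benjamini-Hochberg over 10519 genes. The fit was tested on simulated data. The remaining values were computed in Python 3.11.15. Named genes were the members past 2-fold, the 3 highest and lowest of each complex, those of fixed lists by function and those whose probe sets disagreed. Members and lists were chosen with earlier results of these data known. Alternatives were other scalings, other ways to choose the probe set, no filter and other limits.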

Additional observations from a re-analysis of the deposited data

How the results depend on the processing

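Under 7 alternatives (arrays centred on their medians, quantile normalization, cyclic loess, the mean of the probe sets of a gene, no probe sets ending in _s_at or _x_at, no filter, and low values raised to the filter) 210 medians were recomputed, and 4 moved by more than the spread between probe sets. PRDM14 in scramble cells gave complex III a median of 0.13 with the mean of probe sets and 0.15 without the shared probe sets, against 0.28. The knockdown with PRDM14 gave complex II 0.080 with the mean of probe sets, against 0.16. PRDM14 in knockdown cells gave complex II 0.0038 without the shared probe sets, against −0.07. With the mean of probe sets, the genes of complex III above 0 numbered 1 instead of 3 for PRDM14 in knockdown cells, and 1 instead of 0 for the dependence on the knockdown. In 5 of the 210 medians the sign changed: 4 were of complex II for PRDM14, and 1 of complex I for the dependence under quantile normalization, all near 0. No scaling moved the median of all genes beyond 0.02. With a 1.5-fold limit in place of 2-fold, members past it numbered 3 for PRDM14 in scramble cells, 2 in knockdown cells, 3 for the knockdown without PRDM14, 1 with it and 2 for the dependence, against 0 in each. The share of all genes past 1.5-fold was not counted, so these counts do not set the members apart from other genes. Of 1000 values of named members under these alternatives 11 moved, of which 5 were of Ndufaf4, and 0 of those past 1.3-fold reversed. The additive fit called 0 members in each of its 4 alternatives (no trend, no filter, all probe sets, cyclic loess). No analysis paired by replicate number was possible because each condition had 1 array, and no array could be left out. The additive fit takes each factor within the levels of the other. The medians of complex III without PRDM14 rest on the scramble array, and why it stands apart was not tested. Precision is limited by the 4 arrays.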
